A study of Mus musculus with 40 samples.

Results

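The change in gene expression of the mouse mammary gland between the mature virgin state and day 13 of pregnancy (p13) was described in control animals, across all 13353 genes that reached 1 FPKM in at least one of the compared groups, out of 22552 genes measured. FPKM counts RNA fragments relative to transcript length and library size. The p13 control group held 3 libraries and the virgin control group 2, and each group is given as 1 pooled value per gene, so there is no SD, no n and no test for any value, and no difference has a replicate check. Both groups were MMTV-Cre control mice on an outbred background, line A of a transgene in which the mouse mammary tumour virus promoter drives Cre recombinase. RNA came from whole mammary tissue and was selected by its poly(A) tail. Virgin mice were 12 weeks old and untreated. One of their glands was removed at estrus under anaesthesia, without its lymph node. The age of the pregnant mice, the gland used and the handling of the lymph node at p13 are not given in the sources used here. The opposite gland of virgin controls, collected 2 h after an injection of prolactin at 5 µg per g, forms a further group of 2 libraries, and it is given below as the virgin gland after prolactin. The series holds 31 RNA libraries in 12 groups, among them p13 glands lacking Ezh1, Ezh2, or Ezh2 with one remaining Ezh1 allele. Its 9 chromatin libraries were not analysed here.

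The virgin gland is a sparse tree of ducts embedded in a fat pad. Each duct has an inner layer of luminal cells and an outer layer of contractile basal, or myoepithelial, cells. During pregnancy, progesterone and prolactin drive division of epithelial cells and the growth of alveoli. Prolactin acts through its receptor, the kinase JAK2 and the transcription factor STAT5, and STAT5 binds upstream of milk protein genes. Fewer cells of a type and less RNA per cell cannot be told apart in such whole-tissue values.

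Differences are given as log2(FPKM + 1) at p13 minus log2(FPKM + 1) in virgin, which makes the difference of weakly expressed genes look smaller. Folds were taken directly from FPKM. A gene is counted as higher or lower where this difference was at least 1 in size. Of the 13353 genes, 12133 reached 1 FPKM in both groups, 978 at p13 alone and 242 in virgin alone, while the other 9199 genes stayed below 1 FPKM in both. Just inside this limit lay 4930404H21Rik, at 0.208 FPKM in virgin and 1.00 at p13, and just outside lay Espn, at 0.659 and 0.999. The median difference over the 13353 genes was 0.18, with quartiles of -0.10 and 0.51. At p13, 1301 genes (9.74%) were higher and 394 (2.95%) were lower, so that 76.8% of the genes past the threshold were higher at p13. With both groups rescaled to a common upper quartile the counts were 1011 higher and 564 lower, the share of higher genes was 64.2%, and the median difference was -0.02. Against both virgin groups at once, 961 genes (7.2%) were higher at p13 and 262 (1.96%) were lower. In the virgin gland after prolactin, 679 of 12868 genes (5.28%) were higher and 245 (1.9%) lower than in the untreated virgin gland. No ubiquitously expressed gene of the list used was at 0 in any group.

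**Figure D1:**
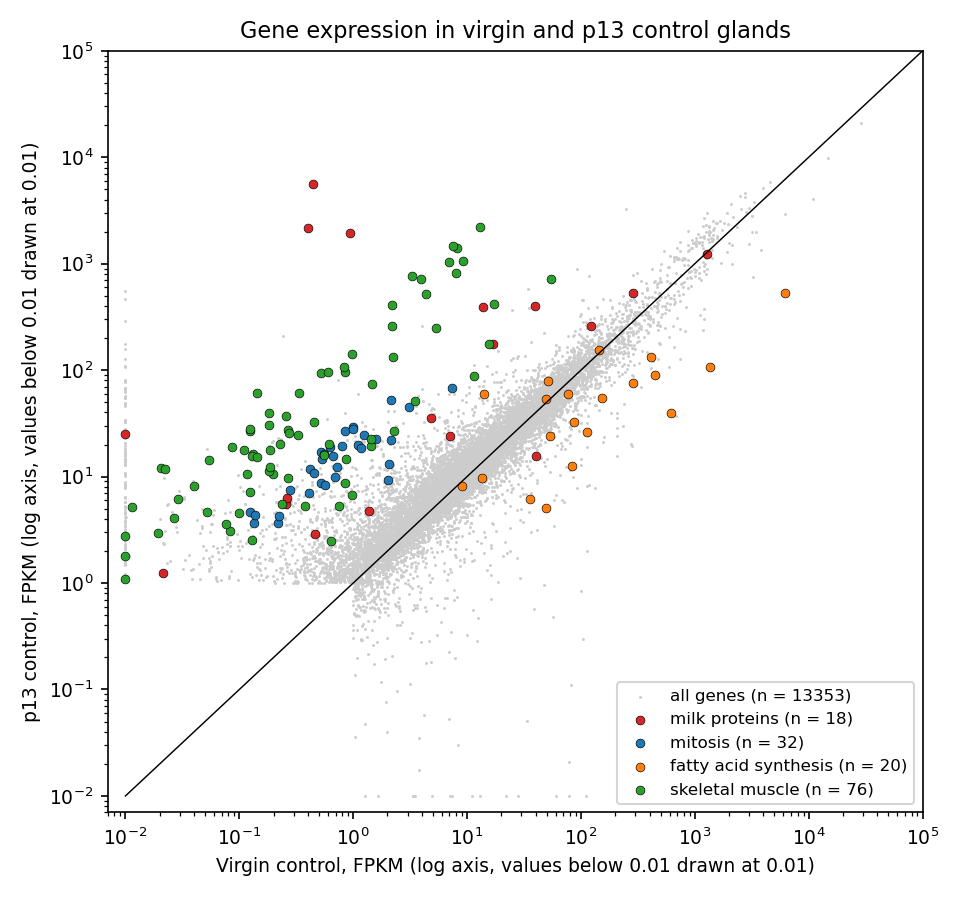
Each point is 1 gene, with its FPKM in the virgin control on the horizontal log axis and in the p13 control on the vertical log axis. Csn2, at 0.443 against 5569.7 FPKM, lies far above the diagonal, with the skeletal muscle genes in a band above it, and Fasn, at 617 against 39.9 FPKM, lies below.

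Fat cell transcripts led both groups. Fabp4, the fatty acid carrier of adipocytes, had the highest level in each, at 28606 FPKM in virgin and 20826 at p13. Car3, an adipocyte carbonic anhydrase, was next in each, at 14665 and 9864 FPKM. The virgin list of the 8 highest genes also held the stearoyl-CoA desaturase Scd1 and the adipsin gene Cfd, whereas at p13 Csn2, the beta-casein gene, stood among the 8 highest at 5569.7 FPKM. The other entries at p13 were mostly translation genes such as Eef1a1, at 4541 FPKM in virgin and 5866 at p13.

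The 36 gene lists that follow are described by counts and by the median difference of all members in the table, to be read against the shares of 9.74% higher and 2.95% lower and the median of 0.18 over all genes. The lists with the highest medians were skeletal muscle (3.72), mitosis (3.11) and milk proteins (2.01). The lowest medians belonged to fatty acid synthesis (-1.54), white adipocyte markers (-0.54) and fatty acid uptake and triglyceride metabolism (-0.48).

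**Figure D2:**
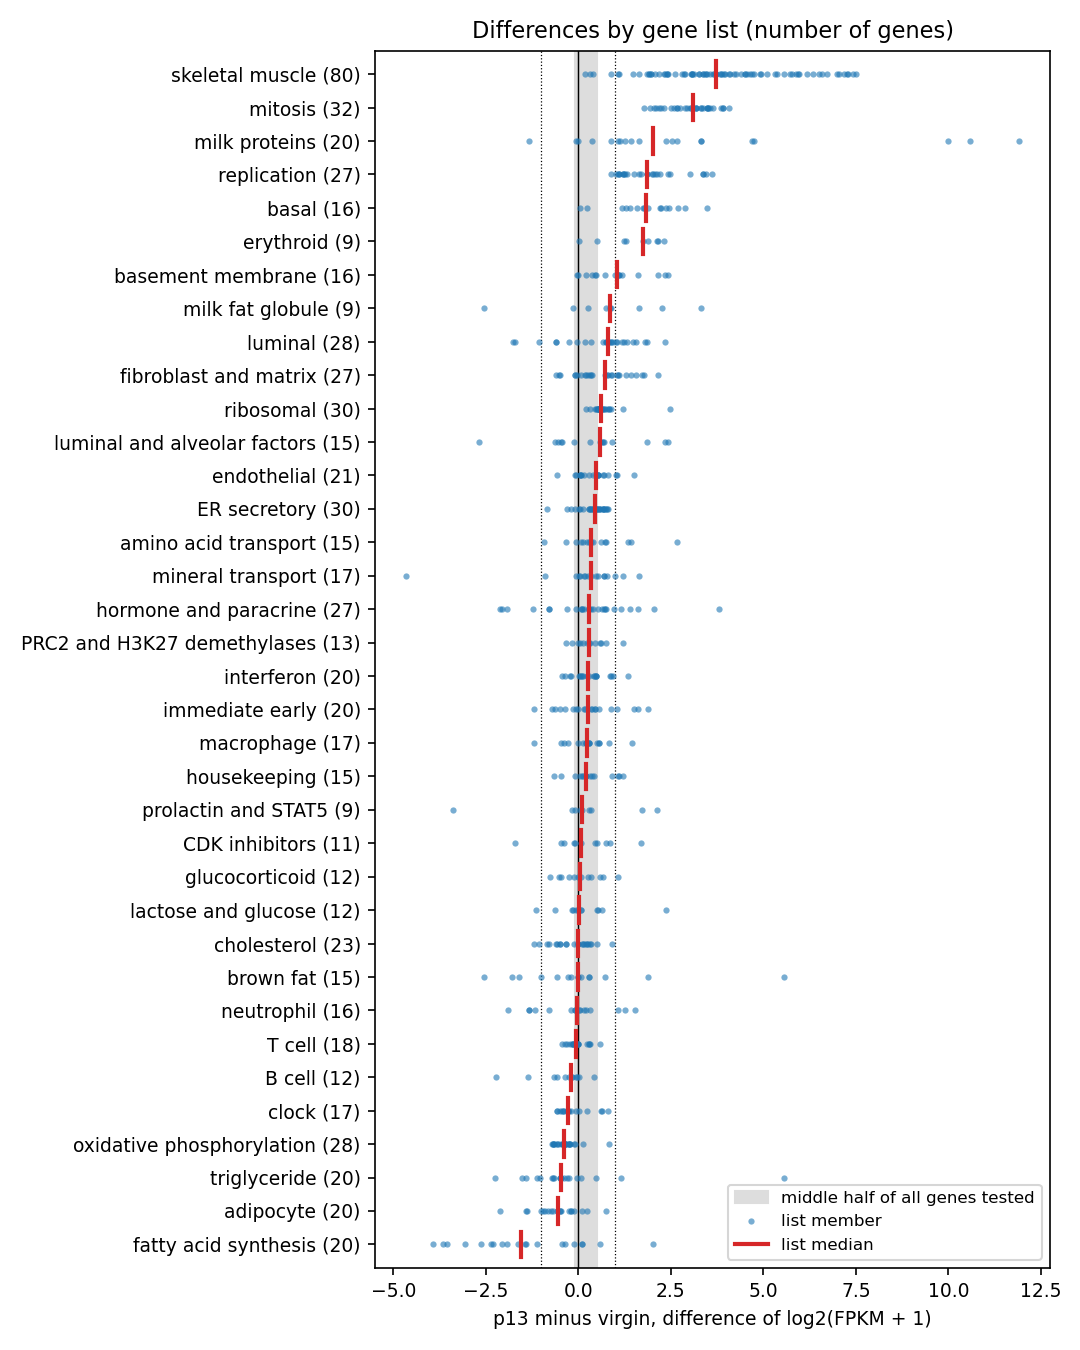
Each point is the difference in log2(FPKM + 1) between p13 and virgin control glands for 1 member of a gene list. A red tick marks the list median, and the number of genes in the list stands beside its name. The grey band runs from the lower to the upper quartile of all genes tested, and dotted lines mark differences of 1 in size. The medians of mitosis, DNA replication, milk proteins and basal markers lie to the right of the median of all genes at 0.18. That of fatty acid synthesis lies furthest to the left.

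Milk protein genes were higher at p13 in 15 of 20 cases and lower in 1, with a median of 2.01. Of the 20 genes 18 reached 1 FPKM, and 10 did so in virgin. The summed FPKM of the list was 1818 in virgin, 2903 in the virgin gland after prolactin, 12797 at p13 and 474023 at day 18 (p18). At p13 the list thus held 1.91% of all FPKM, against 0.294% in virgin and 48.3% at p18. The p13 control had the lowest value of the 4 p13 groups for 14 of the 18 genes, with Csn2 between 8447 and 42713 FPKM in the other p13 groups.

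Caseins form the micelles of milk, and 3 of the casein genes had the largest differences of the list. Csn2 stood at 0.443 FPKM in virgin, 19.2 in virgin after prolactin, 5569.7 at p13 and 145905 at p18. Csn1s2a was at 0.403, 2.57, 2153 and 134328 FPKM in the same order, and Csn1s1 at 0.932, 16.3, 1946 and 47678. All were below 1 FPKM in the untreated virgin gland and at 1946 FPKM or more at p13. Csn3, the kappa-casein gene whose product caps the micelle, was already at 39.9 FPKM in virgin and reached 405 at p13, a 10.2-fold difference. Csn1s2b was far lower than its relatives, at 0.0214 FPKM in virgin, 1.25 at p13 and 212 at p18.

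The casein genes lie in one cluster. By the RefSeq gene order on GRCm38, Csn1s1, Csn2, Csn1s2a and Csn1s2b stand in this order, and Prr27 and Odam lie among the genes between Csn1s2b and Csn3. Odam, an enamel-associated protein gene, was listed at 0 in virgin and at 0.147 FPKM at p13, and Prr27 was listed at 0 and at 0.0249. High levels at p13 were thus found in genes on both sides of Odam and Prr27, which themselves stayed under 1 FPKM.

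Whey and other milk protein genes spanned a wide range of levels at p13. Wap, the whey acidic protein gene, was listed at 0 in virgin, at 0.10 FPKM in virgin after prolactin, at 25 at p13 and at 38474 at p18. Lalba, alpha-lactalbumin, the regulatory subunit of lactose synthase, was at 0.256 FPKM in virgin and 5.53 at p13. Glycam1, a mucin-like milk protein gene, was at 13.7 FPKM in virgin, 864 in virgin after prolactin and 396 at p13. Its p13 level was therefore 28.8 times that of the untreated virgin gland, but below that of the virgin gland 2 h after prolactin. Expi, another gene of the whey acidic protein type, was at 249 FPKM in virgin and 3278 at p13.

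Other secreted and mucosal proteins differed in both directions. Spp1, osteopontin, was at 4.8 FPKM in virgin and 35.5 at p13. Muc15, a membrane mucin, was at 16.9 and 178 FPKM, and Cel, the bile salt-stimulated lipase of milk, at 0.264 and 6.24. Ltf, lactoferrin, an iron-binding antibacterial protein, was the member lower at p13, at 40.2 FPKM in virgin and 15.5 at p13. The iron carrier Trf was close to level, at 1280.1 and 1237 FPKM. Lcn2 and Saa3, which are also acute phase genes, were higher than in the untreated virgin gland, at 258 against 122 and 4.72 against 1.38 FPKM. Both were lower than in the virgin gland after prolactin, at 351 and 46.8 FPKM.

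**Figure D3:**
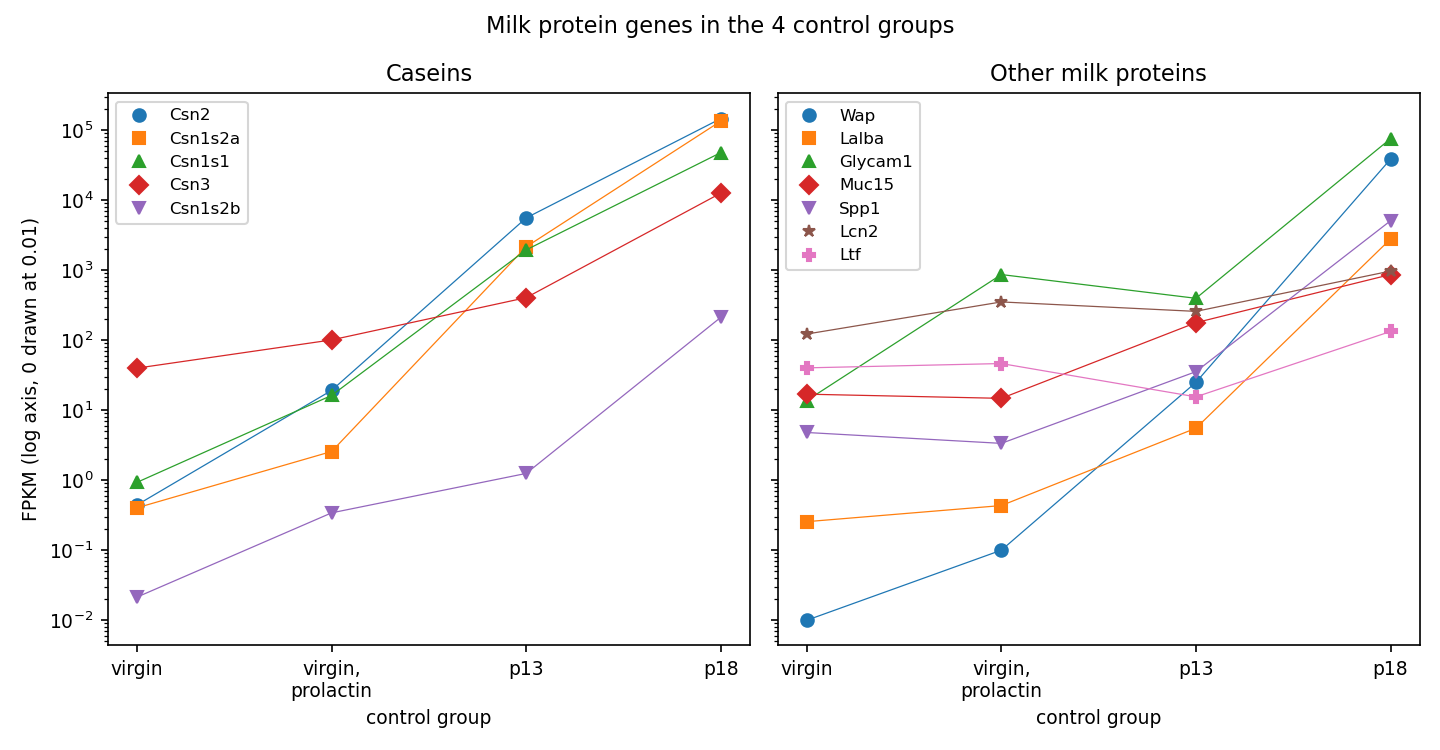
FPKM of milk protein genes on a log axis in the virgin control, the virgin control after prolactin and the p13 and p18 controls, with 1 pooled value per gene and group. Csn2, Csn1s1 and Csn1s2a range from below 1 FPKM in virgin to between 1946 and 5569.7 at p13, while Ltf is lower at p13.

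Upstream sequences were searched for the letters TTCNNNGAA, the core to which STAT5 binds, which reads the same on both strands. In RefSeq promoter windows of GRCm38.p6, 250 bases upstream of the start site, 3 of the 15 milk protein genes with a window held it (20%), namely Csn1s1, Csn2 and Glycam1, against 8.13% of 27025 genes with a window. A match is a description of letters, not a bound site. The 160 bases before the start site of these genes are shown since they include the matches, in capitals. They lie at chr5:87699426-87699585 on the minus strand for Csn2, at chr5:87666048-87666207 on the plus strand for Csn1s1 and at chr15:103565082-103565241 on the minus strand for Glycam1.
Csn2: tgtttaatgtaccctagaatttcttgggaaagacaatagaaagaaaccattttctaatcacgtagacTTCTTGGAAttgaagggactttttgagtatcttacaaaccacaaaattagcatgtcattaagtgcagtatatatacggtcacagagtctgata
Csn1s1: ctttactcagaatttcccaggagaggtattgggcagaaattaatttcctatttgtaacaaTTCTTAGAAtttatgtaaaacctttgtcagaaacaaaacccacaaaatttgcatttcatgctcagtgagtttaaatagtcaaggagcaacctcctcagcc
Glycam1: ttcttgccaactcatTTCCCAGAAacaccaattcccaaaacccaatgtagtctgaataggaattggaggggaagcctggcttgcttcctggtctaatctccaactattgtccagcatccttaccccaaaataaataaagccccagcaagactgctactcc
The match began 93 bases before the start site in Csn2, 100 in Csn1s1 and 145 in Glycam1. The Csn2 and Csn1s1 levels beside these sequences stood at 5569.7 and 1946 FPKM at p13, and that of Csn1s2a, which had no match in its window, at 2153.

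Genes for the release of milk fat globules showed a mixed picture, with 3 of 9 higher, 1 lower and a median of 0.84. Btn1a1, butyrophilin, a protein of the globule membrane, was at 5.17 FPKM in virgin and 28.6 at p13. Muc1, another membrane mucin of the globule, was at 7.07 and 24.2 FPKM. Plin2, the coat protein of the lipid droplet, was at 162 and 291 FPKM, and Xdh, which binds butyrophilin, at 42.2 and 51.1, both within the threshold. Cidea, a droplet protein shared with brown fat, was the member lower at p13, at 23.9 FPKM in virgin and 3.28 at p13.

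Genes of fatty acid synthesis were lower at p13 in 13 of 20 cases and higher in 1, with a median of -1.54. The summed FPKM of the list was 10283 in virgin, 8089 in virgin after prolactin and 1565 at p13. Fasn, fatty acid synthase, was at 617 FPKM in virgin, 257 in virgin after prolactin and 39.9 at p13, 15.4-fold below the untreated virgin gland. Thrsp, a regulator of lipogenesis, was 12.6-fold lower, at 1365 and 108 FPKM. Scd1, which makes monounsaturated fatty acids, was at 6223 and 536 FPKM. These 3 genes were lower at p13 than in both virgin groups.

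Earlier and later steps of the pathway were lower as well. Acly, which provides cytosolic acetyl-CoA from citrate, was at 152 FPKM in virgin and 55 at p13, and Slc25a1, the mitochondrial citrate exporter, at 286 and 75.1. Acaca, acetyl-CoA carboxylase, which makes malonyl-CoA, was at 113 and 26.5 FPKM. Me1, a source of NADPH, was at 446 and 89.9 FPKM, and Elovl6, an elongase, at 36 and 6.15. Pnpla3 and Acss2, a lipase and an acetyl-CoA synthetase, were at 49.4 and 84.2 FPKM in virgin and at 5.06 and 12.7 at p13. The regulator Srebf1 was within the threshold, at 77 and 59.6 FPKM, as was Mlxipl, at 13.5 and 9.69. Fads2, a desaturase of polyunsaturated fatty acids, went the other way, at 14.2 FPKM in virgin and 60.1 at p13.

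The other p13 groups held more of these transcripts. Fasn was at 435 FPKM in the Ezh1 knockout (KO), 299 in the Ezh2 KO and 772 in the Ezh1 heterozygous Ezh2 KO, and at 315 in the p18 control. The p13 control had the lowest value of the 4 p13 groups for 16 of 20 genes of the list, whereas over all 13353 genes it had the lowest value for 28.3%. The summed FPKM of the list in those groups ran from 3255 in the Ezh2 KO to 8165 in the Ezh1 heterozygous Ezh2 KO. For most of the list the other p13 groups thus lay above the p13 control, and whether its low values hold in each of its 3 libraries was not tested.

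Fatty acid uptake and triglyceride genes were lower in 5 of 20 cases and higher in 2, with a median of -0.48. Agpat2 and Dgat2, acyltransferases of triglyceride synthesis, were at 336 and 588 FPKM in virgin and at 69.5 and 203 at p13. Lpl, lipoprotein lipase, which frees fatty acids from circulating lipoproteins, was at 2113 and 984 FPKM. Fabp3, the fatty acid-binding protein of heart and lactating mammary gland, was at 0.734 FPKM in virgin, 19.6 in virgin after prolactin, 80.3 at p13 and 6466 at p18. Acsl3, a fatty acid-activating enzyme, was the other gene higher at p13, at 8.38 and 19.8 FPKM.

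Of 23 cholesterol genes none was higher and 2 were lower, and their median was 0.00. Those 2 were Tm7sf2, at 6.81 FPKM in virgin and 2.4 at p13, and Pmvk, at 44 and 20.4. The sterol branch thus had a median near 0, unlike fatty acid synthesis, and 4 of its genes were lower after rescaling to a common upper quartile.

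**Figure D4:**
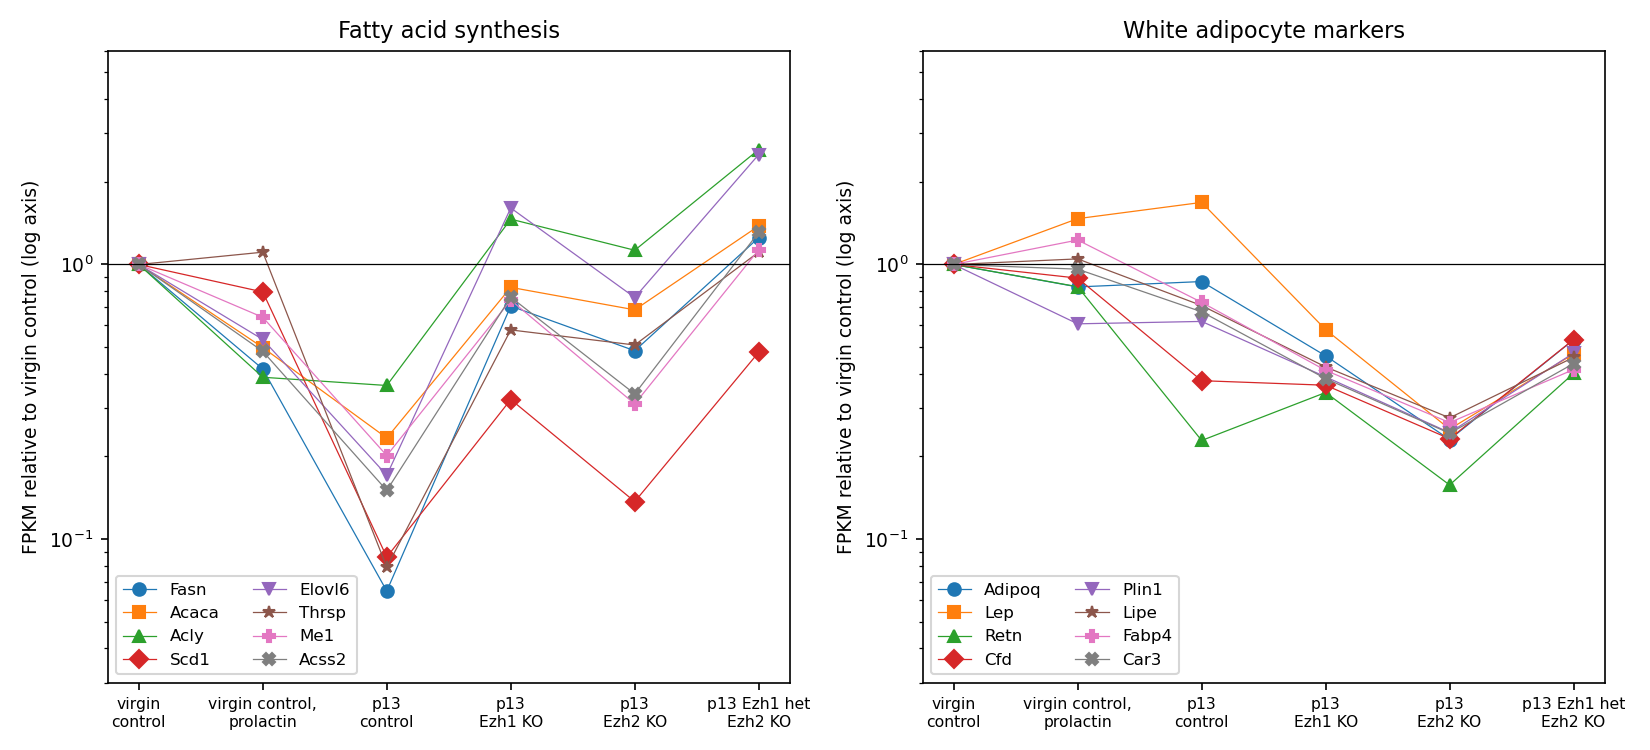
FPKM relative to the virgin control, on a log axis, of chosen fatty acid synthesis genes and white adipocyte markers in control and Ezh mutant groups. Each gene has 1 pooled value per group, its virgin control value is drawn at 1, and lines only join the values of 1 gene. The Fasn values drawn this way are 617 FPKM in virgin, 39.9 in the p13 control and between 299 and 772 in the other p13 groups.

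White adipocyte markers were lower in 4 of 20 cases and higher in none, with a median of -0.54, and up to 7 were lower under other scalings. Their summed FPKM was 66522 in virgin and 42878 at p13, or 10.8% and 6.38% of all FPKM. The 4 were Retn, resistin, at 3252 and 744 FPKM, Cfd, at 10835 and 4090.5, the beta-3 adrenergic receptor gene Adrb3, at 99.8 and 37.8, and the transcription factor gene Cebpa, at 289 and 143. Adipoq, adiponectin, was at 3207 and 2779.7 FPKM and Plin1, the droplet coat of adipocytes, at 594 and 369. Lep, leptin, was at 269 FPKM in virgin and 452 at p13. The median of the adipocyte list was therefore nearer to 0 than that of fatty acid synthesis. Adrb3 and Cebpa were above the virgin gland after prolactin, at 18.2 and 91.9 FPKM. Among the 4 p13 groups, the control had the highest value for 15 of the 20 genes, against 33.3% of all genes. In the other p13 groups the summed FPKM of the list ran from 16503 in the Ezh2 KO to 29477 in the Ezh1 heterozygous Ezh2 KO.

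Of 15 brown fat markers 2 were higher and 4 lower, and their median was -0.01. Ucp1, the uncoupling protein that defines brown fat, was at 2.0 FPKM in virgin, 67.8 in virgin after prolactin and 0.499 at p13. Cox8b, a subunit of cytochrome oxidase found in brown fat and muscle, was at 279 and 90.8 FPKM. The 2 higher genes, Fabp3 and Cpt1b, are also expressed in muscle, and Fabp3 in alveolar cells.

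DNA replication genes were higher at p13 in 26 of 27 cases, with a median of 1.84, and none was lower. Against both virgin groups 23 of 27 were higher. Mcm6, a subunit of the replicative helicase, was at 3.55 FPKM in virgin, 5.03 in virgin after prolactin and 46.1 at p13. Rrm2, the regulated subunit of ribonucleotide reductase, was at 1.04 FPKM in virgin and 21.4 at p13. Uhrf1, which maintains DNA methylation behind the replication fork, was at 1.03 and 24 FPKM, and Tk1, thymidine kinase, at 1.42 and 24. Pcna, the sliding clamp, had the highest level of the list, at 58.6 and 138 FPKM. Ccne1, cyclin E1, was the member within the threshold, at 2.04 and 4.65 FPKM.

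All 32 mitosis genes were higher at p13, with a median of 3.11, and they were higher against both virgin groups. Only 10 of them reached 1 FPKM in the virgin gland. Their differences ran from 1.79 for Anln, a cytokinesis protein, to 4.08 for Birc5, the survivin subunit of the chromosomal passenger complex. Birc5 was at 2.16 FPKM in virgin, 4.71 in virgin after prolactin, 52.3 at p13 and 32.5 at p18. Top2a, which untangles sister chromatids, was at 0.989 FPKM in virgin and 29.2 at p13. Ccnb2 and Ccnb1, the B-type cyclins, were at 0.851 and 0.62 FPKM in virgin and at 26.9 and 19.1 at p13. Cdc20, the activator of the anaphase-promoting complex, was at 0.998 and 28.1 FPKM, and Ube2c, its ubiquitin-conjugating enzyme, was highest in the list at p13, at 7.41 and 68.6. The summed FPKM of the list was 35.4 in virgin, 56.5 in virgin after prolactin, 579 at p13 and 385 at p18. For Birc5 the p13 control lay within the range of the other p13 groups, from 42.3 to 67.9 FPKM.

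Promoters of such genes carry CCAAT boxes, bound by NF-Y, and the letters TTTGAA, the cell cycle homology region read by the DREAM complex. Searched on both strands in the 250 upstream bases, CCAAT was found in 20 of 27 mitosis genes with a window (74.1%), in 14 of 22 replication genes (63.6%) and in 37.5% of all 27025 genes. TTTGAA was found in 9 of 27 mitosis genes (33.3%), in 3 of 22 replication genes (13.6%) and in 18.3% of all genes. The 160 bases before the start sites of Top2a, Cdk1 and Cdc20 are shown because they hold both, with matches on either strand in capitals. They lie at chr11:99024190-99024349 for Top2a, at chr10:69352913-69353072 for Cdk1 and at chr4:118437344-118437503 for Cdc20, all on the minus strand of GRCm38.p6.
Top2a: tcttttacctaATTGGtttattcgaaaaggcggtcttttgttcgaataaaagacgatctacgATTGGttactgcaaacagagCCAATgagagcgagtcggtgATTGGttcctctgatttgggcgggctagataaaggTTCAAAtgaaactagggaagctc
Cdk1: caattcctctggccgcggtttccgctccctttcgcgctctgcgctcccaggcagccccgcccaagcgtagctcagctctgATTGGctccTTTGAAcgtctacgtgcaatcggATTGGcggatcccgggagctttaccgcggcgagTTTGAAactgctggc
Cdc20: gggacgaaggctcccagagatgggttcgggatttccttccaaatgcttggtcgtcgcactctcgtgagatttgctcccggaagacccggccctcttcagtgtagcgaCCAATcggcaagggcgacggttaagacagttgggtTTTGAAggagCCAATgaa
The Top2a window held 4 CCAAT matches and 1 of TTTGAA, that of Cdk1 held 2 of each, and that of Cdc20 held 2 and 1. Cdk1, the kinase that starts mitosis, was at 1.1 FPKM in virgin and 19.9 at p13.

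Of the genes that restrain or license the cell cycle, 1 of 11 was higher and 1 lower, with a median of 0.09 that lay below 0 under several other scalings (down to -0.13). Cdkn2c, which encodes the inhibitor p18INK4c, was at 288 FPKM in virgin, 107 in virgin after prolactin and 87.8 at p13. Trp53, the p53 gene, was at 18.5 and 62.4 FPKM. Cdkn1a and Cdkn1b, the p21 and p27 genes, were within the threshold, at 27 and 28.8 and at 23.2 and 32 FPKM.

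Ezh2 and Ezh1 encode the alternative methyltransferases of Polycomb repressive complex 2. Ezh2 was at 4.98 FPKM in virgin, 6.74 in virgin after prolactin, 12.9 at p13 and 10.0 at p18. Ezh1 was level, at 14.7 FPKM in virgin and 14.7 at p13. Among 13 genes of the complex and of H3K27 demethylases, Ezh2 was the member past the threshold, and the median was 0.29. Suz12 and Eed, core subunits, were at 16.6 and 12.5 FPKM in virgin and at 20.7 and 15.5 at p13.

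Of 9 genes of prolactin signalling, 2 were higher at p13 and 1, the prolactin receptor gene Prlr, was lower. Prlr was at 70.4 FPKM in virgin, 61.7 in virgin after prolactin, 5.78 at p13 and 6.9 at p18, so the p13 value was 12.2-fold below the untreated virgin gland. The other p13 groups lay between 5.77 and 8.71 FPKM. Jak2, Stat5a and Stat5b were within the threshold, at 15.5, 33.9 and 20.5 FPKM in virgin and 13.6, 32.1 and 26.2 at p13. Cish and Socs2, feedback inhibitors induced by STAT5, were at 6.64 and 11.5 FPKM in virgin and 32.4 and 40.6 at p13. Both were lower at p13 than in the virgin gland 2 h after prolactin, at 62.3 and 50.0 FPKM. The related inhibitor genes Socs1 and Socs3 were within the threshold, at 1.86 and 5.6 FPKM in virgin and 2.48 and 5.85 at p13. Over the 9 genes the median was 0.11, and it was -0.12 after rescaling to a common upper quartile.

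Hormone receptors and paracrine signals included 5 of 27 genes higher and 4 lower, with a median of 0.30. Pgr, the progesterone receptor, was at 12.2 FPKM in virgin and 2.48 at p13. Esr1, the estrogen receptor, was within the threshold, at 14 and 18.1 FPKM. Cited1, a transcriptional coregulator of hormone-sensing luminal cells, was at 107 and 24.8 FPKM, and Areg, the amphiregulin ligand induced by estrogen, at 64 and 26.6. Tnfsf11, the RANKL gene through which progesterone acts on neighbouring cells, was within the threshold, at 30.7 and 17.4 FPKM. Its receptor gene Tnfrsf11a was at 0.961 and 4.96 FPKM. The ligand value was thus lower and the receptor value higher at p13.

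Growth factors of the same list differed in both directions too. Igf2, an insulin-like growth factor, was at 2.02 FPKM in virgin, 2.52 in virgin after prolactin and 41.5 at p13, and Ccnd1, cyclin D1, at 32, 35.6 and 137. Id2, an inhibitor of basic helix-loop-helix factors, was at 29.8 and 80.8 FPKM in virgin and p13. Fgfr2, a receptor needed for ductal branching, was at 33.1 and 6.86 FPKM, and Wnt4, a progesterone target, was level at 12.1 and 11.6. Calca, the calcitonin gene, had the highest p13 level of these ligands at 111 FPKM, against 66.8 in virgin.

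Among luminal and alveolar transcription factors, 3 of 15 were higher and 1 lower, with a median of 0.58. Elf5, which specifies alveolar cells, was at 25.1 FPKM in virgin, 47.5 in virgin after prolactin and 131 at p13, a 5.23-fold difference from the untreated virgin gland. Ehf, a related epithelial ETS factor, was at 16.5 and 92.8 FPKM, and Creb3l1, a factor of secretory cells, at 7.48 and 29.5. Foxa1, a partner of the estrogen receptor in hormone-sensing cells, was 7.53-fold lower, at 34.7 and 4.61 FPKM. Gata3, a general luminal factor, was within the threshold, at 39.5 and 28.9 FPKM.

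Of 28 luminal and general epithelial markers, 10 were higher and 3 lower, with a median of 0.82. The lower genes were Krt7, at 112 and 32.1 FPKM, Prom1, a marker of hormone-sensing luminal cells, at 8.0 and 1.75, and Cldn4, at 62.7 and 29.4. The most abundant luminal keratins were within the threshold, with Krt19 at 512 FPKM in virgin and 337 at p13, Krt18 at 429 and 283, and Krt8 at 322 and 268. Among the higher genes were Cldn3, a tight junction claudin, at 60.5 and 144 FPKM and Cdh1, E-cadherin, at 41.8 and 87.5. After rescaling to a common upper quartile 7 genes of the list were higher. Kit, a receptor of luminal progenitor cells, was at 21.2 and 44 FPKM, and Krt23 at 2.95 and 19.2. Epcam, an adhesion protein of epithelial cells, was within the threshold, at 111 and 193 FPKM.

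Basal markers were higher in 14 of 16 cases, with a median of 1.83 and none lower, and 9 were higher against both virgin groups. Krt14 and Krt15, basal keratins, were at 19.8 and 2.0 FPKM in virgin and 76.5 and 32.4 at p13. Acta2 and Myh11, smooth muscle actin and myosin of contractile cells, were at 118 and 8.3 FPKM in virgin and 774 and 42.4 at p13. Trp63, the transcription factor that defines the basal layer, was at 5.46 and 14.7 FPKM, and Oxtr, the oxytocin receptor, at 25.5 and 88.4. The contractile genes are also made by smooth muscle of vessels, whose part was not tested. The virgin gland after prolactin had 255 FPKM of Acta2, 22.1 of Krt17 against 4.83 in the untreated gland, and 32.9 of Mylk, the myosin light chain kinase, against 29.4 at p13.

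**Figure D5:**
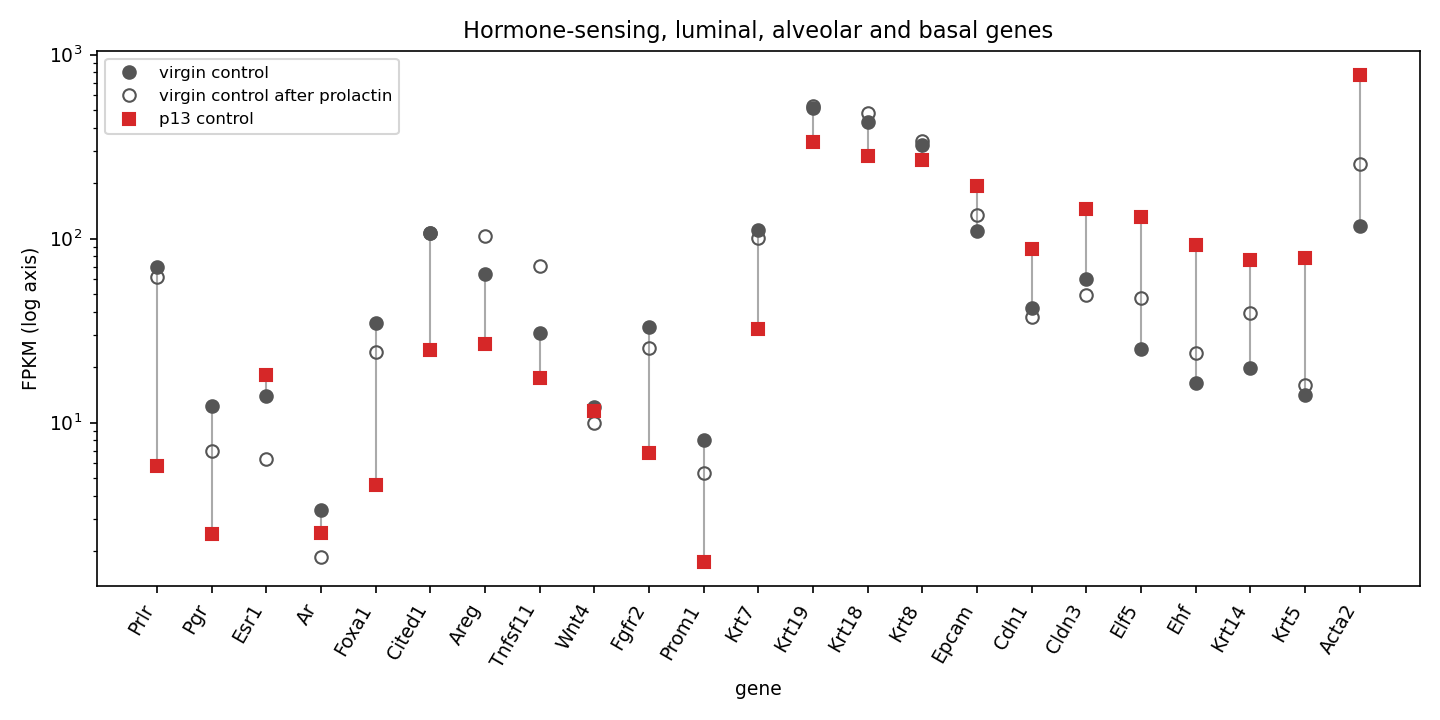
FPKM on a log axis of chosen hormone-sensing, luminal, alveolar and basal genes, with 1 pooled value per gene and group. Shown are the virgin control, the virgin control after prolactin and the p13 control, and a vertical line joins the untreated virgin and p13 values. Prlr is at 70.4 FPKM in virgin and 5.78 at p13, and Foxa1 at 34.7 and 4.61, while Acta2 is higher at p13.

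The 12 largest differences towards virgin were taken over protein-coding genes with at least 5 FPKM in either group and outside the muscle list. Dmbt1, a mucosal scavenger glycoprotein, was at 78.8 FPKM in virgin and 0.0209 at p13, and Ido1, which degrades tryptophan, at 81.1 and 0.111. Fam25c was at 105 and 0.298 FPKM. These 3 genes were near 0 in the p18 control as well, at 0 for Dmbt1, 0.0908 for Ido1 and 0.178 for Fam25c. Slc5a5, the sodium iodide symporter that concentrates iodide in milk, was at 38.6 FPKM in virgin, 0.57 at p13 and 6.07 at p18. Slc12a2, a sodium, potassium and chloride cotransporter, was at 273 and 20.1 FPKM, and Ly6d, a membrane-anchored surface protein, at 279 and 19.3. Abp1, a diamine oxidase, was at 33.7 and 0.0507 FPKM, the chemokine gene Cxcl15 at 46.9 and 0.968, and Dkkl1 at 29.2 and 1.11. Fasn was also among the 12. Gm5506 and Mup10 complete them, at 57.1 and 0.48 and at 679 and 36.7 FPKM, and both are uncertain because near-identical copies of these genes share reads.

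The 12 largest differences towards p13 by the same rule included Csn2, Csn1s2a, Csn1s1, Glycam1, Wap and Fabp3. The agouti gene, a, which encodes a signalling peptide of pigment cells, was at 0.242 FPKM in virgin, 0.724 in virgin after prolactin, 209 at p13 and 857 at p18. Wfdc12, a secreted inhibitor with a whey acidic protein domain, was at 4.05 and 260.4 FPKM in virgin and p13, and its other p13 values began at 53.8. Igfbp2, which binds insulin-like growth factors, was at 1.1 and 60.2 FPKM, and Atp6v1c2, a subunit of the proton pump of acidic vesicles, at 0.845 and 39.4. Myom1, at 0.587 and 34.4 FPKM, encodes a protein of the sarcomere, and Hfe2, at 0.217 and 22.8, encodes hemojuvelin, made in skeletal muscle and liver. Neither had been placed in the muscle list, and both are described with it below.

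Interstitial matrix and fibroblast genes were higher in 9 of 27 cases and lower in none, with a median of 0.73. Col1a1 and Col1a2, the chains of type I collagen, were at 101 and 155 FPKM in virgin and 455 and 463 at p13. Postn, periostin, was at 116 and 386 FPKM, and Timp1, an inhibitor of matrix proteases, at 4.68 and 18.4. Sparc, a collagen-binding protein and the most abundant member, was at 1439 and 2534 FPKM. Fibroblast markers without such a difference were Pdgfra, at 19 and 18.6 FPKM, and Dcn, decorin, at 732 and 506. The p13 control had the highest value of the 4 p13 groups for 16 of 27 of these genes, against 33.3% of all genes.

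Basement membrane genes were higher in 8 of 16 cases and lower in none, with a median of 1.03, but only 4 were higher after rescaling to a common upper quartile. The largest differences of the list were those of Lamb3, a chain of laminin-332, at 2.73 FPKM in virgin and 18.9 at p13, and Lama1, at 0.305 and 5.61. Which cells made them was not tested. Col17a1, the hemidesmosome collagen of basal cells, was at 1.62 and 10.7 FPKM. Col4a1, of type IV collagen, lay just short of the threshold, at 149.8 and 299 FPKM. In 9 of the 16 genes the control had the highest value of the 4 p13 groups, against 33.3% of all genes. Between virgin and p13 Ezh2 KO glands the median was 0.29, with 5 genes higher and 1 lower.

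Endothelial genes were higher in 3 of 21 cases, or in 1 after rescaling to a common upper quartile, with a median of 0.48. Apln, a ligand of growing vessels, was at 2.45 FPKM in virgin and 8.79 at p13, and Plvap, of fenestrated vessels, at 39.2 and 81.6. Pecam1 and Cdh5, general endothelial markers, were within the threshold, at 52.5 and 43.2 FPKM in virgin and 76.3 and 62.7 at p13. Of the 19 genes that reached 1 FPKM, 12 were highest in the control among the 4 p13 groups, against 33.3% of all genes. Between virgin and p13 Ezh2 KO glands the median was -0.32, with 1 gene higher and 3 lower.

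Few immune markers passed the threshold between the untreated virgin and the p13 gland. Of 17 macrophage genes, Cd68, at 20.5 and 57.8 FPKM, was higher and Lyz1, at 130.4 and 56.1, was lower, with a median of 0.22. Of 18 T cell and natural killer cell genes none passed the threshold, with a median of -0.05, and of 12 B and plasma cell genes 2 were lower, with a median of -0.21. These 2 were Igj, the antibody joining chain, at 17.9 and 3.09 FPKM, and the chemokine gene Cxcl13, at 10.9 and 3.65. Only 9 of the 18 T cell and 5 of the 12 B cell genes reached 1 FPKM, and genes below 1 FPKM in both groups cannot pass the threshold. With a pseudocount of 0.1 FPKM the medians were -0.12 for T cells and -0.81 for B cells. Against the virgin gland after prolactin the medians were -2.23 for T cells and -3.01 for B cells, with Cd79a, of the B cell receptor, at 1.63 FPKM in untreated virgin, 49.7 after prolactin and 0.755 at p13. The 2 virgin control groups thus differed in lymphocyte genes, and differences from either are to be read beside that. Summed FPKM of the T cell list was 19.9 in the untreated virgin control, 181 after prolactin and 226 in the untreated virgin Ezh2 KO. For the B cell list the sums were 609, 1165 and 1377 in the same order. The cause was not tested. Neutrophil and acute phase genes split, with 3 of 16 higher and 4 lower. S100a8, a neutrophil calcium-binding protein, was at 16.4 FPKM in virgin and 3.63 at p13, and Hp, haptoglobin, at 691 and 307.

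Interferon response genes had a median of 0.27, with 1 of 20 higher. That gene was Ifi44, at 1.28 FPKM in virgin and 4.8 at p13. Isg15, a ubiquitin-like modifier, was at 17.2 and 32.9 FPKM. The p13 control had the lowest value of the 4 p13 groups for 17 of the 18 genes that reached 1 FPKM, with Ifit3, for example, at 8.53 FPKM against 17.3 to 47 in the others.

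Immediate early genes were higher in 4 of 20 cases and lower in 1. Myc, a driver of growth, was at 13.6 FPKM in virgin, 49.1 in virgin after prolactin and 52.4 at p13, and Fos, a subunit of AP-1, at 25.9, 28.2 and 10.7. None of 17 circadian clock genes passed the threshold, with a median of -0.28. Nr1d1, a clock repressor, was at 68.1 and 51.8 FPKM in virgin and p13, and Per1 at 15.4 and 24.1. Glucocorticoid-induced genes had a median of 0.04, which was -0.18 after rescaling to a common upper quartile, and of the 12 genes Lcn2 alone passed the threshold, which none did after that rescaling. Fkbp5, a glucocorticoid target, was at 11.8 FPKM in virgin, 158 in virgin after prolactin and 19.4 at p13.

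Secretory machinery differed less than its cargo. None of 30 genes for translocation and folding in the endoplasmic reticulum passed the threshold, although 26 were above 0 and the median was 0.44. Calr, the calcium-binding chaperone calreticulin, was at 293 FPKM in virgin and 496 at p13, and Hspa5, the main folding chaperone, at 200.3 and 304. Xbp1, which drives this programme, was at 145 and 237 FPKM. All 30 ribosomal protein genes were above 0, with a median of 0.61, and 2 passed the threshold. Those 2, Rps27 and Rps23, were at 5.67 and 36 and at 32.4 and 76.7 FPKM, and they are uncertain since processed copies of ribosomal protein genes share reads. Of 28 oxidative phosphorylation genes 26 were below 0, with a median of -0.38 and none past the threshold. Sdhb, of succinate dehydrogenase, was at 236 and 142 FPKM.

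Transport genes for milk precursors were mostly within the threshold. Of 15 amino acid transporters 3 were higher, led by Slc7a5, the large neutral amino acid transporter, at 2.48 FPKM in virgin, 11 in virgin after prolactin and 21 at p13. Of 17 mineral transporters, the zinc importer gene Slc39a8, at 3.77 and 10.0 FPKM, and the copper pump gene Atp7b, at 0.10 and 2.46, were higher, and Slc5a5 was lower. Among 12 genes of glucose uptake and lactose synthesis, 1 was higher at p13, Lalba, and 1 was lower. Slc2a1, the main glucose transporter, was level at 11.9 and 12.4 FPKM, and B4galt1, the catalytic subunit of lactose synthase, was at 34.9 and 50.2.

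Skeletal muscle genes were set apart as markers of another tissue. All 76 of 80 members that reached 1 FPKM were higher at p13, and 22 of the 80 reached 1 FPKM in virgin. Their summed FPKM was 200.1 in virgin, 395 in virgin after prolactin and 13931 at p13, or 0.0323%, 0.0563% and 2.07% of all FPKM. In the other p13 groups the sum was 3484 in the Ezh1 KO, 191 in the Ezh2 KO and 189.9 in the Ezh1 heterozygous Ezh2 KO, and in the p18 control it was 208. The p13 control had the highest value of the 4 p13 groups for all 76. Acta1, skeletal muscle actin, was at 13 FPKM in virgin and 2211 at p13, and Tnnt3, troponin T of fast fibres, at 7.56 and 1469.9. Myod1, a defining factor of the muscle lineage, was under 1 FPKM in both, at 0.00724 and 0.863. Myom1 and Hfe2, outside the list, were also highest in the p13 control of the p13 groups. Myom1 was at 5.69 FPKM in the Ezh1 KO and 0.323 in the Ezh2 KO at p13, against 34.4 in the p13 control, and Hfe2 at 4.85 and 0.0355, against 22.8. Where this RNA came from was not tested. Without the list, 1225 genes (of 13277) were higher at p13 and 394 lower, and the 1225 still include muscle genes such as Myom1 and Hfe2.

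Red cell genes also stood higher in the p13 control than in virgin, in 7 of 9 cases, with a median of 1.74. Alas2, the first enzyme of haem synthesis in red cells, was at 26.5 FPKM in virgin and 99.99 at p13, and Slc4a1, the anion exchanger of the red cell membrane, at 0.163 and 4.22. The globin genes share near-identical copies, and their single values are uncertain. The summed FPKM of the list was 1987 in virgin and 5067 in the p13 control. It was 2417 in the Ezh1 KO, 1098 in the Ezh2 KO and 2140 in the Ezh1 heterozygous Ezh2 KO at p13, and 140 in the p18 control. For 6 of the 7 genes that reached 1 FPKM, the p13 control was the highest of the 4 p13 groups. Between virgin and p13 Ezh2 KO glands the median was 0.09, with 0 genes higher. The share of blood in the samples was not tested.

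The course from virgin to p13 in the Ezh2 KO shares no samples with the control course, and its values were set beside it. Its genotype is given in the labels as homozygous for a floxed Ezh2 allele (Ezh2f/f) together with that of the controls. In that course 1565 of 13553 genes (11.5%) were higher at p13 and 1300 (9.59%) lower. Of the genes higher in the control course 797, or 61.3%, were higher in the Ezh2 KO course too, which is 50.9% of that list. Of the genes lower in the control course 223, or 56.6%, were lower in both, which is 17.2% of the Ezh2 KO list. Against that, 46 genes higher in the control course were lower in the Ezh2 KO course, and 15 went the other way. No test of a difference between the courses could be made with 1 value per group.

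Several lists had near values in both courses. Mitosis had a median of 3.11 in the control and 2.70 in the Ezh2 KO course, with 32 of 32 higher in each, and basal markers had 1.83 and 1.70. Single genes had the same direction with different sizes in the control and Ezh2 KO courses, as Prlr differed by -3.40 and -1.66, Dmbt1 by -6.29 and -2.93, and Ido1 by -6.21 and -4.53. Other lists lay apart. Fatty acid synthesis had -1.54 and -0.26, white adipocyte markers -0.54 and -1.66, interstitial matrix 0.73 and -0.33, luminal markers 0.82 and 2.01, milk proteins 2.01 and 3.53, and interferon response 0.27 and 1.68. The adipocyte list had 4 of 20 genes lower in the control course and 19 in the Ezh2 KO course. B and plasma cell genes had medians of -0.21 and -3.16, with 2 and 11 of 12 genes lower. T cell and natural killer cell genes had -0.05 and -2.40, with 0 and 14 of 18 genes lower. The skeletal muscle list had 3.72 and -0.03, so the band of muscle genes was found in the control course and not in the Ezh2 KO course. Fasn was at 347 FPKM in the virgin Ezh2 KO and 299 in the p13 Ezh2 KO, beside 617 and 39.9 in the controls. Csn2 was at 12.5 and 42713 FPKM, beside 0.443 and 5569.7.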

How the data were processed

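The deposited table gives FPKM for 22552 genes, with the authors' single value for each of 12 groups of mammary gland RNA libraries. The way in which libraries were combined was not given in the sources used here. The submitters' processing notes list TopHat, Cufflinks and Cuffdiff beside the aligners Bowtie and BWA, the tools FastQC, Trim Galore, HOMER and CASAVA, and mouse build mm9, without roles or versions. Depth is unknown. Among 1010 genes below 0.05 FPKM in both groups, the most common ratio covered 0.792%, so whole reads could not be recovered.

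Groups came from the labels. Differences were computed as log2(FPKM + 1), with a pseudocount of 1 FPKM, for genes with at least 1 FPKM in either group, and counted from a size of 1, which is a description and not a test. The 36 gene lists and all members were chosen with earlier results of these data known. Named genes were up to 5 members of each list with the largest differences and its most abundant member, the 12 largest differences in each direction among protein-coding genes with at least 5 FPKM outside the muscle list, the 8 most abundant genes of each group, and Ezh1 and Ezh2. Other genes named were chosen after their values were seen, for their known role, and a few members of the lists are counted but not reported here by name. Gene types, gene order and upstream sequences are from RefSeq tables (GRCm38), with 20004 genes matched by symbol, 2339 by synonym and 209 unmatched. Python 3.11.15, pandas 2.3.3, NumPy 2.4.6 and matplotlib 3.10.9 were used, and the code was tested on simulated data. Alternatives were pseudocounts, filters, scalings, the threshold, the genes counted and the virgin group after prolactin.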

Additional observations from a re-analysis of the deposited data

How the results depend on the processing

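No paired analysis was possible because the table has 1 pooled column per group and carries no replicate numbers, and for the same reason no replicate could be left out in turn. With a pseudocount of 5 FPKM, 617 genes were higher and 235 lower at p13, and with a threshold of 2 log2 units 457 and 128. With a pseudocount of 0.1 the counts were 1742 and 508, with a filter of 5 FPKM 943 and 332, for protein-coding genes alone 1146 and 322, and with no filter 1301 and 394. Rescaling to a common sum gave 1134 and 467 and moved the median of all genes from 0.18 to 0.08, and leaving milk protein genes out of that sum gave 1169 and 450. Leaving milk protein, skeletal muscle and red cell genes out of it gave 1223 and 424. Without 239 genes over 4-fold higher in the p13 control than in the Ezh2 KO, the Ezh1 heterozygous Ezh2 KO and the p18 control, a setting chosen after seeing the data, 1080 were higher and 392 lower. With the virgin gland after prolactin as the virgin group, 1404 were higher and 800 lower, and these differences, past the threshold against the untreated gland, turned their sign: Actb -0.0152, Adrb3 1.02, Cebpa 0.63, Cish -0.92, Glycam1 -1.12, Lcn2 -0.45, Mylk -0.16, Nr4a1 -0.0448, Pglyrp1 -0.41, Saa3 -3.06, Scd2 0.22 and Socs2 -0.29. The medians of immediate early, prolactin and STAT5 and glucocorticoid genes were then -0.59, -0.77 and -1.72, and that of cholesterol genes 0.40. The cause was not tested. The medians of the prolactin and STAT5, glucocorticoid, glucose and lactose, cell cycle inhibitor and ubiquitous gene lists changed sign under another scaling. With depth unknown, levels below 1 FPKM and folds from them are imprecise.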

Other observations

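Beyond the lists, 239 genes were over 4-fold higher in the p13 control than in each of the Ezh2 KO and Ezh1 heterozygous Ezh2 KO at p13 and the p18 control. Of these, 74 belonged to the skeletal muscle list and 147 were outside it and also past the threshold against virgin. The latter include further muscle genes, such as Myom1, Myom2, Tmod4 and Jsrp1, at 34.4, 21.6, 22.7 and 21.2 FPKM in the p13 control. The genes named here were chosen after their values were seen. Mest, an imprinted gene linked to the growth of fat cells, was at 34.7 FPKM in virgin, 387 in the p13 control and 26.5 to 63.6 in the other p13 groups. Sfrp5, a secreted inhibitor of Wnt signalling made by fat cells, was at 18.9 FPKM in virgin, 152 in the p13 control and 6.77 to 19.7 in the others. Their levels in the single p13 control libraries were not analysed here.

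Small RNA genes passed the threshold more often than protein-coding genes. Of 96 microRNA genes 58 were higher and 34 lower, and of 74 small nucleolar RNA genes 43 were higher and 11 lower, against 1146 and 322 of 12761 protein-coding genes. They count among the 1301 and 394 genes, but their single values are not given above. These values are uncertain, since the RNA was selected by its poly(A) tail and FPKM is relative to transcript length, which is short here. Snord70 and Mir3474, for example, were at 18.0 and 17.0 FPKM in the p13 control. Both were listed at 0 in the untreated virgin gland, the p18 control and the other p13 groups. With a pseudocount of 1 FPKM, a gene listed at 0 in either compared group passes the threshold whenever it reaches 1 FPKM in the other. The calls of such genes therefore follow from the filter. Whether such counts reflect small RNA levels was not tested. Lars2, a mitochondrial leucyl-tRNA synthetase, was at 34.1 FPKM in virgin, 574 in the p13 control, 164 in the Ezh1 KO, 489 in the Ezh2 KO and 39.1 in the Ezh1 heterozygous Ezh2 KO.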
